A study of Mus musculus with 6 samples.

Results

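Glycinergic transmission was described through 7 genes. They are the 2 plasma membrane glycine transporters Slc6a5 and Slc6a9, the vesicular transporter Slc32a1, the receptor subunits Glra1, Glra2 and Glrb, and the scaffold gene Gphn. Every probe set that the platform annotation pairs with 1 of these genes alone was taken, which gave 16 of the 34945 single-gene probe sets on the array, for 7 of 18193 genes. The family was chosen by the difference between treated and vehicle arrays on these same 6 arrays, in which Slc6a5 had been seen to be lower with treatment, so those differences are given as a description and carry no p-value. The comparison of the sexes and that of the treatment differences between the sexes were tested.

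Glycine is the main fast inhibitory transmitter of the spinal cord and brainstem. It is loaded into synaptic vesicles by the carrier that also loads GABA (Slc32a1), and it is taken back up into the terminal by GlyT2 (Slc6a5) and into glia by GlyT1 (Slc6a9). Its receptor is a pentameric chloride channel of alpha and beta subunits, which gephyrin (Gphn) anchors at the synapse through the beta subunit. Receptors of the immature nervous system hold mostly the alpha 2 subunit (Glra2), and the alpha 1 subunit (Glra1) takes its place as the brain matures.

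Whole brains of C57BL/6 mouse pups were profiled on 6 Affymetrix expression arrays. The pups had been injected intraperitoneally on postnatal day 2 and were killed for brain collection on postnatal day 6. Treated pups got 1 mg of testosterone propionate (TP), a slowly released form of testosterone, dissolved in 20 µL of sesame oil, while control pups got the same volume of oil with no hormone (vehicle). Each array carried RNA pooled from 6 mice. Females had 2 arrays for each treatment and males had 1 for each. The second female array of each treatment is labelled a replica, and nothing says that it came from other mice, so the spread on which p-values rest may be only technical. The dose was given at the age when the mouse brain differentiates by sex, and the study asked how it alters expression in the female brain.

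Values are log2 expression values from RMA, and the number of arrays limits their precision. Array medians lay between 5.69 and 5.74. Genes of neurons were bright on every array, with a mean of 12.67 to 12.73 over 8 genes, while Alb, a liver gene, lay at 3.47 to 3.91. The other liver genes measured were not all low, with means of 5.49 for Apoa1 and 14.05 for Ttr. Means of 4 skeletal muscle genes ran from 3.68 for Tnnt3 to 8.23 for Acta1. Y-linked Eif2s3y stood at 9.12 and 9.16 on the male arrays and at most 3.09 on the female arrays. Xist, whose RNA coats the inactive X chromosome, stood at 12.61 to 12.83 on the female arrays and 5.29 on the male vehicle array. It stood at 10.45 on the array labelled male TP, which goes against that label, so member results that rest on this array are also given without it where a fit allows, and lists of other genes are also given from females alone. No detection call was used. Probe sets below the 40th percentile of mean value, which lay at 5.49, are called dim, and levels of different probe sets cannot be compared with each other.

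Of the 16 member probe sets 11 were not dim, and they covered 6 of the 7 genes. Both Glra1 probe sets were dim, as were 2 of the 4 for Slc32a1 and 1 of the 2 for Slc6a5. Each gene is represented first by its brightest probe set.

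The brightest probe sets of Slc6a5 and Slc32a1, genes of the presynaptic glycinergic terminal, had lower values in TP brains. Slc6a5 (probe set 1442177_at), which defines glycinergic neurons, stood at 6.68 and 6.81 in the female vehicle arrays and 6.74 in the male vehicle array. It stood at 6.45 and 6.28 in the female TP arrays and 6.27 in the male TP array. All 3 TP arrays lay below all 3 vehicle arrays. The female means were 6.75 ± 0.09 for vehicle and 6.37 ± 0.12 for TP (SD, n = 2 each), a log2 difference of -0.38 (SE 0.10). The male difference was -0.47 on 1 array each, and over both sexes, adjusted for sex, it was -0.41 (SE 0.07), or 1.33-fold lower. Without the male TP array the estimate is the female one of -0.38.

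The dimmer Slc6a5 probe set, 1425992_at, did not share this pattern. It stood at 3.95 and 3.87 in female vehicle, 3.92 and 3.87 in female TP, 3.77 in male vehicle and 4.21 in male TP arrays. The female groups overlapped, and the only large step was the higher value of the male TP array, by 0.44. With the mean of the 2 probe sets in place of the brighter one, the Slc6a5 difference over both sexes shrank to -0.13 (SE 0.06).

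Slc32a1 encodes the vesicular carrier of both glycine and GABA. Its brightest probe set, 1422756_at, stood at 9.58 and 9.42 in female vehicle and 9.48 in male vehicle arrays. The TP values were 9.30 and 9.31 in females and 9.22 in the male. Again every TP array lay below every vehicle array, by a smaller step than for Slc6a5. The difference was -0.19 (SE 0.09) in females, -0.26 in males and -0.21 (SE 0.07) over both sexes, or 1.16-fold lower. Without the first female vehicle array the female difference was -0.11. The 3 dimmer probe sets differed by -0.18, -0.14 and 0.03 over both sexes, each with overlapping groups. Probe set 1447573_at had the opposite sign, with 3.57 and 3.42 in female vehicle, 3.52 and 3.67 in female TP, 3.76 in male vehicle and 3.66 in male TP arrays. The mean of the 4 probe sets differed by -0.12 (SE 0.07) over both sexes and by -0.05 (SE 0.08) in females.

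Promoter windows are shown for these 2 presynaptic genes because the values of their brightest probe sets were lower together. RefSeq windows of mouse assembly GRCm38.p6 were found for 6 of the 7 members, 9 windows in all. No window was found for Glra1, so the counts below do not cover it. The 250 bases before the annotated start are printed 5′ to 3′ on the plus strand. Capitals mark CANNTG, the E-box that basic helix-loop-helix factors bind, which reads as the same pattern on both strands.
Slc6a5, chr7:49910049-49910298: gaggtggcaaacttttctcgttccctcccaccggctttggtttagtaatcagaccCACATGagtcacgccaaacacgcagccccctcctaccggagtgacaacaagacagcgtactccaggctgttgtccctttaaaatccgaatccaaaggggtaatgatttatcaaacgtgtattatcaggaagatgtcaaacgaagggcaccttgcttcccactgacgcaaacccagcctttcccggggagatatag
Slc6a5, chr7:49911450-49911699: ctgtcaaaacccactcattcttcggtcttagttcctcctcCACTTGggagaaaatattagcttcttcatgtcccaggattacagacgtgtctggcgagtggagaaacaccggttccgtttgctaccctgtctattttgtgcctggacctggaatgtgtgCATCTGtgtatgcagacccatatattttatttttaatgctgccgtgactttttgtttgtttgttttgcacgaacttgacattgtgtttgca
Slc32a1, chr2:158610508-158610757: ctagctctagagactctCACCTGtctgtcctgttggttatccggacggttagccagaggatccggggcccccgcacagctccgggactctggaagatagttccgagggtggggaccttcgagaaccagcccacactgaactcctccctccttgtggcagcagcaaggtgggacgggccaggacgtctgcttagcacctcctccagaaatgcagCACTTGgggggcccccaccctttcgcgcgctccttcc
The pattern was present in all 3 of these windows, in 5 of the 9 member windows and in 66.2% of all 32851 windows of that length. The androgen receptor half-site AGAACA and the estrogen receptor half-site AGGTCA, searched on both strands, occurred in 0 of the 9 member windows and in 16.1% and 14.0% of all windows. These are matches of letters in 1 window per start, not sites of binding.

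Slc6a9 encodes the glial glycine transporter. Its brightest probe set, 1417636_at, stood at 8.32 and 8.25 in female vehicle, 8.33 and 8.24 in female TP, 8.44 in male vehicle and 8.23 in male TP arrays. The female groups had nearly equal means, 8.29 ± 0.05 and 8.29 ± 0.06 (SD, n = 2 each), and the male TP value was lower by 0.21 than the male vehicle value. Over both sexes the difference was -0.07 (SE 0.07), which became 0.00 (SE 0.08) without the male TP array, and the second probe set gave -0.07 (SE 0.07) too. The neuronal and the glial transporter had differences of -0.41 and -0.07 for their brightest probe sets. With the mean of each gene's probe sets the differences were -0.13 (SE 0.06) and -0.07 (SE 0.06).

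Among the receptor subunits, Glra1 had lower values in TP brains by both of its probe sets, which are dim. Probe set 1437139_at stood at 5.53 and 5.59 in female vehicle and 5.31 and 5.28 in female TP arrays, and at 5.24 in male vehicle and 4.89 in male TP arrays. Within each sex every TP array was below every vehicle array, but over both sexes the groups overlapped, because the male vehicle value lay under both female TP values. The difference was -0.27 (SE 0.08) in females, -0.35 in males and -0.29 (SE 0.06) over both sexes, or 1.23-fold lower.

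Probe set 1422277_at of Glra1 stood at 4.04 and 3.93 in female vehicle, 4.08 in male vehicle, 3.73 and 3.73 in female TP and 3.61 in male TP arrays. Here all 3 TP arrays lay below all 3 vehicle arrays, with a difference of -0.33 (SE 0.07) over both sexes. Both probe sets are dim, with 1437139_at at the 37.6 and 1422277_at at the 18.2 percentile of mean value among single-gene probe sets. With no detection call, it is uncertain whether they measure Glra1 RNA, and so is the size of the difference.

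Glra2, the alpha subunit of immature receptors, had nearly the same values throughout. Its 1 probe set, 1434098_at, stood at 9.76 and 9.76 in female vehicle, 9.72 and 9.76 in female TP, 9.64 in male vehicle and 9.71 in male TP arrays. The difference was 0.01 (SE 0.06) over both sexes and -0.02 (SE 0.08) without the male TP array. The log2 ratio of Glra1 to Glra2 within an array, set against its own mean over the 6 arrays, was 0.19 and 0.25 in female vehicle and 0.01 and -0.06 in female TP arrays. The male vehicle array had 0.02 and the male TP array -0.41, so within each sex the ratio was lower with TP.

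Glrb, the beta subunit that binds gephyrin, had values on the higher side. Its brightest probe set, 1459850_x_at, whose suffix marks probes that can match other transcripts, stood at 10.21 and 10.14 in female vehicle, 10.26 and 10.17 in female TP, 10.14 in male vehicle and 10.39 in male TP arrays. The groups overlapped in females, and the male TP array was the highest of the 6. The difference was 0.11 (SE 0.07) over both sexes and 0.04 (SE 0.08) without the male TP array. The other probe set, 1422504_at, gave 9.23 and 9.38 in female vehicle, 9.49 and 9.34 in female TP, 9.37 in male vehicle and 9.63 in male TP arrays, a difference of 0.16 (SE 0.08) with overlapping groups.

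Gphn, the gephyrin gene, which also serves molybdenum cofactor synthesis, showed small differences of mixed sign. Its brightest probe set, 1426462_at, stood at 10.03 and 10.18 in female vehicle, 10.04 and 10.08 in female TP, 10.14 in male vehicle and 10.12 in male TP arrays. The difference was -0.03 (SE 0.06) over both sexes. Probe set 1426463_at differed by -0.05 (SE 0.06). Probe set 1430038_at, with 7.90 and 8.05 in female vehicle, 8.04 and 7.86 in female TP, 7.85 in male vehicle and 7.95 in male TP arrays, differed by 0.02 (SE 0.08). The groups overlapped for all 3.

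**Figure D1:**
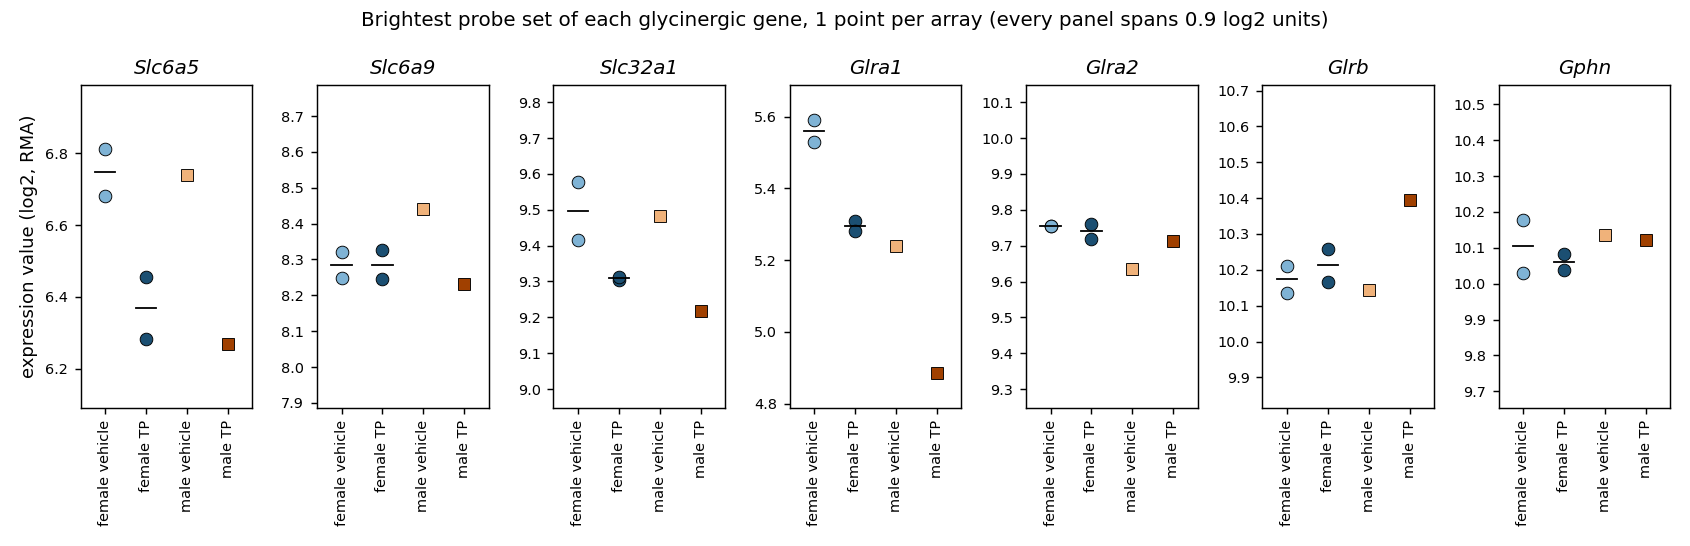
Log2 expression value (RMA) of the brightest probe set of each of the 7 genes, 1 point per array, with circles for females, squares for males and a line at the mean where a group has 2 arrays; every panel spans the same number of log2 units. The TP arrays of Slc6a5 and Slc32a1 lie below all vehicle arrays, Glra1 is lower with TP within each sex, and Glra2 and Gphn stay within 0.2 log2 units.

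Over both sexes 10 of the 16 member probe sets had negative treatment differences, with a median of -0.06 and a range from -0.41 to 0.16, against a median of -0.02 over all single-gene probe sets. TP lay below vehicle without overlap, 3 arrays against 3, for 3 member probe sets, where 9.12% of all single-gene probe sets did so. They were 1 each of Slc6a5, Slc32a1 and Glra1, and that of Glra1 is dim. TP lay above vehicle without overlap for 0 members, where 6.01% did so. Without the male TP array the same 3 genes had TP below vehicle with no overlap, which leaving out an array cannot undo, against 15.2% of all probe sets. Between the single male arrays 5 member probe sets were lower by over 0.32 log2 units, where 4.76% of all were, and 1 was higher, where 3.85% were. These counts come from the contrast on which the family was picked, and nothing is read from them.

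In the limma fits (adjusted p under 0.05 over 34945 probe sets) 0 of the 16 members passed for TP against vehicle over both sexes, where 0% of all probe sets did, and 0 passed in females, where 0.00572% did. At an unadjusted p under 0.05 there were 4304 probe sets in all in the former fit and 2736 in the latter. Nothing is read from the member counts, since both fits use the contrast on which the family was picked.

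**Figure D2:**
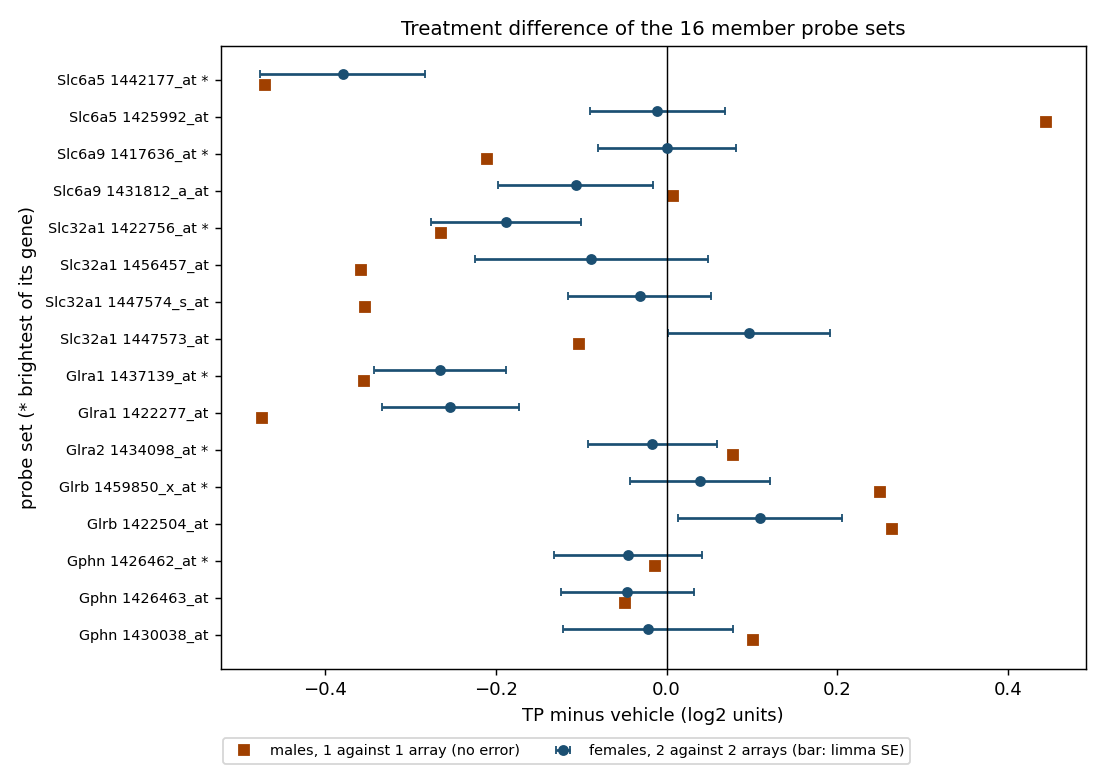
TP minus vehicle in log2 units for each of the 16 member probe sets, with circles and limma SE bars for females (2 against 2 arrays) and squares for males (1 against 1 array, no error). The brightest Slc6a5 probe set lies at -0.38 in females and -0.47 in males, both Glra1 probe sets lie below 0 in both sexes, and the dim Slc6a5 probe set lies at 0.44 in males.

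Whether the treatment difference itself differed between the sexes was tested with limma over the 4 groups. The spread in that fit comes from the female pairs alone and is taken to hold for males. No member passed (0 of 16, limma adjusted p from that fit, where 0.02% of all probe sets passed). In that fit 1692 of all 34945 probe sets had an unadjusted p under 0.05, and so did 1 of the 16 members. That was the dim Slc6a5 probe set, with a male minus female difference of 0.46 (SE 0.14, adjusted p = 1.00). For the brightest probe sets the values were -0.09 (SE 0.17) for Slc6a5, -0.08 (SE 0.15) for Slc32a1, -0.09 (SE 0.13) for Glra1 and 0.21 (SE 0.14) for Glrb. The SEs are as large as many of the differences, so these arrays cannot show differences of this size. Every such value rests on the male TP array and has no counterpart without it.

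Males and females were then compared over both treatments, adjusting for treatment, a contrast the choice of genes did not use. No member passed (0 of 16), while 4 probe sets of the whole array did (0.0114%), all of Y-linked genes. An unadjusted p under 0.05 from this limma fit was found for 2 of the 16 members and for 4354 of all 34945 probe sets. Glra1 had the smallest adjusted p. Its brightest probe set averaged 5.43 ± 0.16 in females (SD, n = 4) and 5.06 ± 0.25 in males (SD, n = 2). These SDs span both treatments, so they include the treatment difference, and the males had 1 array for each treatment. The difference between the sexes was -0.37 (SE 0.06, limma adjusted p = 0.296). Both male arrays, at 5.24 and 4.89, lay below all 4 female arrays. Leaving out the male TP array gave -0.32 (SE 0.09, limma adjusted p = 0.520).

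The second Glra1 probe set did not share this, at -0.01 (SE 0.08, limma adjusted p = 0.965), or 0.10 without the male TP array. The mean of both differed by -0.19 (SE 0.06, limma adjusted p = 0.279). For Slc32a1 the dim probe set 1447574_s_at was higher in males, at 5.36 and 5.01 against 4.78 to 4.91 in females, a difference of 0.35 (SE 0.09, limma adjusted p = 0.301) that was 0.51 without the male TP array, while the brightest probe set of the gene differed by -0.05 (SE 0.07). Glra2 was lower in males without overlap by a small step, -0.07 (SE 0.06, limma adjusted p = 0.647). That step was -0.12 without the male TP array and -0.03 without the male vehicle array. The gene lies on the X chromosome.

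The remaining genes had small differences between the sexes. Slc6a5 differed by -0.05 (SE 0.08), Slc6a9 by 0.05 (SE 0.08), Glrb by 0.08 (SE 0.08) and Gphn by 0.05 (SE 0.07) for their brightest probe sets. Without the male TP array these became -0.01, 0.16, -0.03 and 0.03. Over all 16 probe sets the median was 0.05, against -0.01 for all single-gene probe sets. Males lay below females without overlap for 2 members, where 12.5% of probe sets did so, and above for 1, where 7.83% did so. The member counts of 2 and 1 in 16 are near those shares.

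**Figure D3:**
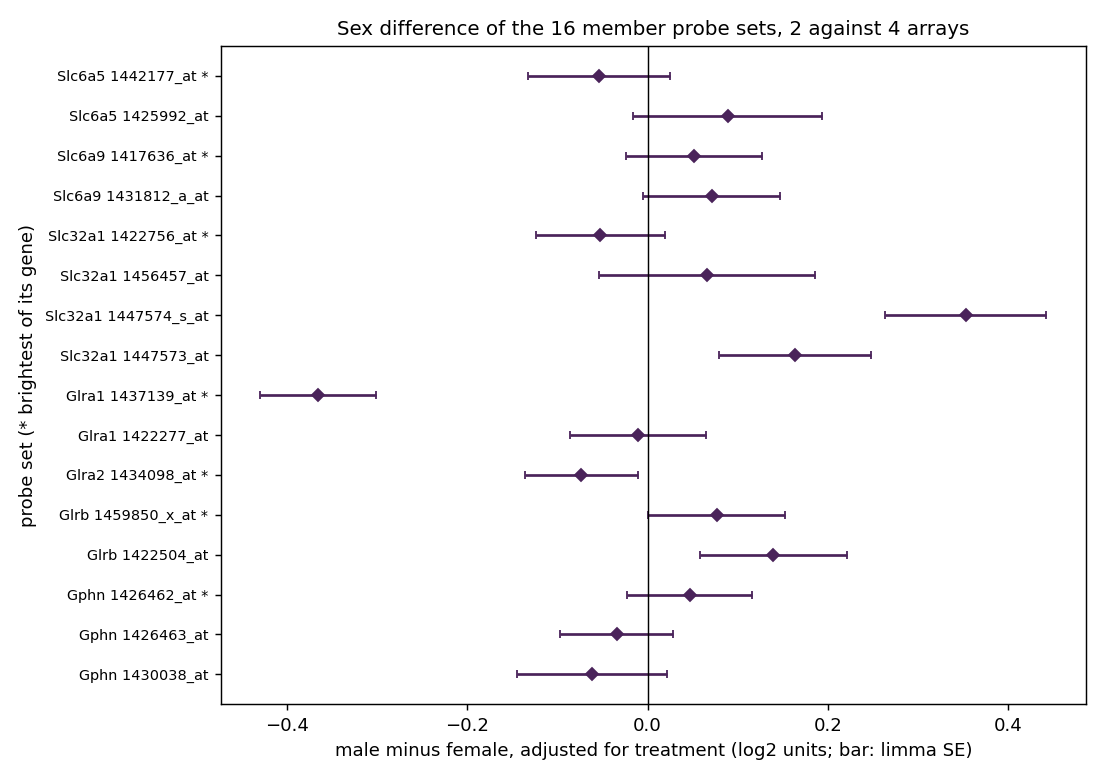
Male minus female difference, adjusted for treatment, in log2 units with limma SE bars for each of the 16 member probe sets (2 against 4 arrays). The brightest Glra1 probe set lies lowest at -0.37 and the dim Slc32a1 probe set 1447574_s_at highest at 0.35, and neither passed the threshold.

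Other genes of inhibitory synapses were followed through lists of genes, each gene by its brightest probe set. In each of the 9 lists examined, 0 genes passed the limma threshold in either direction for TP against vehicle or for males against females. Over all 18193 genes 62.1% had negative TP differences over both sexes, with a median of -0.03, and 59.2% in females, with a median of -0.02. Values in females alone, an alternative added after seeing the data, stand beside those over both sexes because they leave out the male TP array. Of 5 measured genes of GABA synthesis and uptake 2 were negative over both sexes (median 0.01) and 4 in females (median -0.02). Gad1 and Gad2, the enzymes that make GABA, both stood at 0.02 (SE 0.07 and 0.08) over both sexes and at -0.02 in females.

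Of 11 measured gephyrin partners and genes of the inhibitory postsynapse 4 were negative (median 0.03; 3 in females), with the adhesion protein gene Nlgn3 at 0.10 and Vasp, a regulator of actin, at -0.11. The other receptor subunit genes Glra3 and Glra4 had 0.13 (SE 0.08) and 0.17 (SE 0.09) over both sexes but 0.03 and 0.11 in females, and Glra4 is dim. All 4 measured cation chloride cotransporter genes were negative over both sexes (median -0.10), and 3 in females (median -0.07). The smallest difference of the 4 was that of Slc12a2, at -0.01 (SE 0.07) over both sexes and 0.03 in females. Slc12a5, whose product KCC2 lowers chloride in maturing neurons and so makes glycine inhibitory, had -0.09 (SE 0.06), and Slc12a4 had -0.18 (SE 0.07). The mean of that list was 8.61 to 8.67 in TP arrays and 8.71 to 8.80 in vehicle arrays, without overlap.

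Glycinergic neurons lie mainly in the hindbrain and cord, and genes that mark position there were read beside the members. Of 17 such genes measured, mostly of the Hox clusters, 14 had negative TP differences over both sexes (median -0.21) and 15 in females (median -0.14), and only 6 of the 17 are not dim. Hoxb5 had -0.51 (SE 0.09) over both sexes and -0.39 in females, Hoxb3 had -0.35 (SE 0.09) and -0.24, and Hoxd3, which is dim, had -0.37 (SE 0.10) and -0.24. The mean of the list was 5.06 to 5.26 in TP arrays and 5.34 to 5.36 in vehicle arrays, without overlap. Of 12 measured transcription factors of hindbrain and cord inhibitory neurons 9 were negative over both sexes (median -0.09) and 9 in females (median -0.12), and 7 are not dim. Lhx5, which is dim, had -0.28 (SE 0.08) and Tal1 had -0.19 (SE 0.07) over both sexes. Their mean was 5.57 to 5.63 in TP and 5.66 to 5.71 in vehicle arrays. Between the sexes 58.5% of all genes had negative values (median -0.02), and 56.7% without the male TP array. The position list had a median of -0.07, with Hoxb3 at -0.40 (limma adjusted p = 0.296) and Hoxb5 at -0.39 (limma adjusted p = 0.301). Glra1 probe set 1437139_at, but not the second one, also had lower male values. Without the male TP array the list's median was 0.01, Hoxb3 had -0.25 and Hoxb5 -0.20. All 5 cerebellar markers had negative values in males against females (median -0.28, or -0.21 without the male TP array), with a mean of 8.47 and 8.52 on the male arrays and 8.73 to 8.83 on the female arrays.

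All 5 measured oligodendrocyte genes were negative for TP over both sexes and 4 in females. Their mean was 8.65 to 8.80 in TP and 8.88 to 8.92 in vehicle arrays. Over both sexes Mog, which is dim, had -0.36 (SE 0.07) and Mag -0.29 (SE 0.10). Mbp had -0.08, Olig1 -0.03 and Olig2 -0.02, beside a median of -0.03 over all genes. The mean of 6 astrocyte and radial glia genes was 10.56 to 10.60 in TP and 10.61 to 10.67 in vehicle arrays. Of these 6 genes 4 were negative over both sexes (median -0.01) and 3 in females (median 0.02). For 0 of them did TP lie below vehicle without overlap. The means of neuronal, forebrain and cerebellar markers overlapped between TP and vehicle, and 2 of the 5 cerebellar markers were negative. Of 3 measured forebrain markers 1 was negative over both sexes (median 0.16) and 1 in females (median 0.15). Among the forebrain markers Neurod6 had 0.32 (SE 0.10) over both sexes and 0.23 in females, with TP above vehicle without overlap. The lower TP values of the brightest Slc6a5, Slc32a1 and Glra1 probe sets stand beside these markers. What part the markers, or the amount of hindbrain and cord in each dissected brain, had in them was not tested. Nor was their part tested in the lower male values of Glra1 probe set 1437139_at, which the second Glra1 probe set did not share. In whole-brain RNA, fewer glycinergic neurons and less RNA per neuron cannot be told apart.

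The 5 genes whose profile over the 6 arrays was nearest to that of Slc6a5, by the mean absolute distance between values centred on each gene's own mean, were Cdh20 (0.039 log2 units), a cadherin gene, Ackr4 (0.060), a chemokine receptor gene, Hhip (0.061), which encodes a hedgehog-binding protein, Adssl1 (0.062) and 9330133O14Rik (0.065). They were ranked among 12257 genes that were not dim, with a median distance of 0.196. Among the members, Slc32a1 was nearest to Slc6a5 at 0.115 and ranked 213, Glra1, which is dim, followed at 0.138, and Glrb was farthest at 0.260. With 6 arrays and so many genes, near profiles are a description of these arrays.

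**Figure D4:**
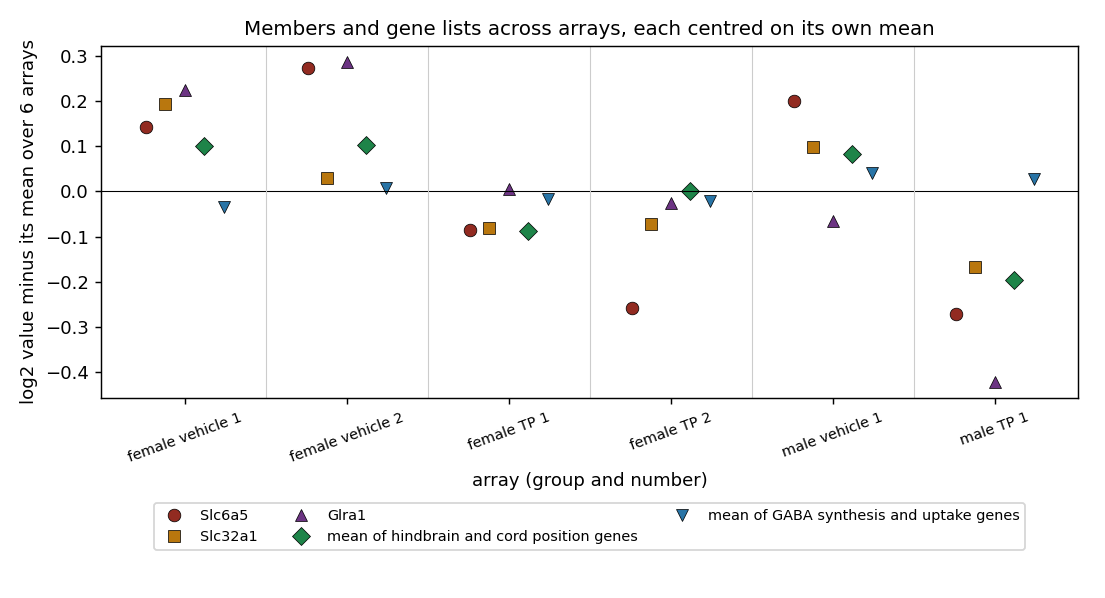
Log2 values of Slc6a5, Slc32a1 and Glra1 (brightest probe sets) and the means of 2 gene lists on each of the 6 arrays, each centred on its own mean over the arrays. The hindbrain and cord position genes are above 0 on the 3 vehicle arrays and lowest on the male TP array, while the mean of the GABA synthesis and uptake genes stays within 0.05 of 0.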

How the data were processed

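Expression was measured in 6 arrays of pooled whole-brain RNA. The deposited values are log2 expression values that the authors made with RMA, per the submitters' processing notes (version not given in the sources used here). RMA normalizes between arrays, which would remove a shift shared by all genes. Probe sets were named through the platform's annotation, with 932 of 45101 pairing with several genes and left unnamed, and 34741 of 34945 single-gene probe sets found by gene identifier in RefSeq. All single-gene probe sets were fitted in limma 3.58.1 under R 4.3.3 (lmFit, eBayes, two-sided), with Benjamini-Hochberg adjustment and a threshold of 0.05, after a test on simulated data. The members, gene lists and tests were chosen with earlier results of these data known. The text names every member, the 5 nearest profiles to Slc6a5 and, per list, up to 3 genes by p between the sexes or by treatment difference. Some marker genes are named as well. Of the listed genes, 17 had no single-gene probe set matched and are not analysed here. Alternatives were other choices of probe set, normalization, variance trend, a block and left-out arrays. Figures used Python 3.11.15, pandas 2.3.3 and matplotlib 3.10.9.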

Additional observations from a re-analysis of the deposited data

How the results depend on the processing

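No member passed the limma threshold under any of the alternatives run. In both tested comparisons together the sign of a member gene turned in 10 of 180 alternative values, none of which had passed. Treatment differences turned in 12 of 187, for Slc6a9, Glra2, Glrb and Gphn. Many of these values could not turn. Fits with 1 probe set per gene, without dim probe sets or with an intensity trend leave the difference of a probe set unchanged. The replicate block leaves treatment differences unchanged, and some left-out arrays repeat another fit. The counts of turns are therefore no measure of stability. The sex difference turned when probe sets were averaged for Slc6a5 (0.0174), Slc32a1 (0.133) and Gphn (-0.0163), without the male TP array and with vehicle arrays alone for Glrb (-0.0286 in both), and without the male vehicle array and with TP arrays alone for Slc6a9 (-0.0538 in both). The difference between the sexes' TP effects turned when probe sets were averaged for Slc6a5 (0.182) and without female vehicle array 2 for Slc32a1 (0.00568) and Gphn (-0.0423). With 1 array left out, the sex difference ranged from -0.0538 to 0.156 for Slc6a9 and from -0.0286 to 0.182 for Glrb, and the difference between TP effects from -0.157 to 0.00568 for Slc32a1 and from -0.0423 to 0.105 for Gphn. The adjusted p of Glra1 between the sexes ranged from 0.153 with an intensity trend to 0.860 with vehicle arrays alone, and leaving out dim probe sets removed Glra1.

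Counts over all probe sets moved more. Between the sexes 4 became 0 without dim probe sets (3321 at an unadjusted p under 0.05), 37 with an intensity trend, 2 with a replicate block, 12 with TP arrays alone and 3 to 14 with 1 array left out, the highest without the male vehicle array. For TP over both sexes 0 became 38 with a trend and 0 to 2 with 1 array left out. In females 2 (1 higher, 1 lower) became 5 with 1 probe set per gene, 1 without dim probe sets, 6 with quantile normalization again (2 higher, 4 lower), 8 with centred arrays (2 higher, 6 lower), 16 with a trend and 0 without any 1 array (1433 to 4415 at an unadjusted p under 0.05). For the difference between TP effects 7 became 2 with 1 probe set per gene or their mean and 12 with a trend, and 6 with any 1 female array left out. The original and replica numbers do not pair the samples by their labels. The same-numbered female deviations correlated at 0.111 across probe sets, and the replicate block changed no call of a member. The 3 probe sets with TP below vehicle were counted again, as alternatives chosen after seeing the data, without the male TP array and under both normalizations, and stayed 3. Leaving out an array cannot make separate groups overlap, so without the male TP array the count could not fall. Both normalizations were run on values that RMA had already normalized. The unchanged count is therefore no measure of stability.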

Other observations

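Genes that make or carry glycine outside the synapse gave small differences. Of 10 measured genes of glycine and serine metabolism 4 were negative for TP over both sexes (median 0.03) and 6 in females (median -0.01). Dld, a subunit of the glycine cleavage system and of several dehydrogenases, had 0.18 (SE 0.06), Psph, which makes serine, had -0.14 (SE 0.07), and Srr, which makes D-serine, had -0.14 (SE 0.06). Between the sexes 9 of these 10 genes were negative (median -0.09), where 58.5% of all genes were, and 10 without the male TP array (median -0.12). Among them was Shmt2, the mitochondrial enzyme that makes glycine from serine, at -0.16 (limma adjusted p = 0.405), or -0.08 without the male TP array. Of 6 other carriers of glycine 3 were negative for TP (median 0.02), and 2 in females (median 0.05). Of 5 molybdenum cofactor genes 3 were negative over both sexes and 4 in females, with Mocs3 at -0.19 (SE 0.07). In these lists 0 genes passed the limma threshold in either comparison.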
